A study of Mus musculus with 9 samples.

Results

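Transcript counts of 10 genes of lipopolysaccharide (LPS) sensing and of signalling through the transcription factor NF-κB were examined in primary mouse microglia. The cells had received Chd8 siRNA, Tsc2 siRNA or a control siRNA. The 10 genes were Tlr4, Cd14, Ly96, Myd88, Ticam1, Irak4, Nfkb1, Rela, Nfkbia and Tnfaip3, picked by name as parts of the pathway by a rule that used no measured value, though with earlier results of these data known. All Ensembl transcripts of each gene were summed. Of 54119 genes with transcripts in the table, 16229 passed the filter on low counts, and all 10 members were among them.

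The data were 9 total RNA libraries from C57BL/6J microglia, 3 for each siRNA, numbered 1 to 3 within each group. The labels do not say what a number marks. The cells came from whole brains of late embryos, were grown on mixed glia and shaken off, and cultures were kept separate by animal. The siRNA was introduced by lipofection, with a negative-control siRNA in the control group, so all 9 libraries shared the transfection and none came from untransfected cells. The labels name no LPS, while the study's text places LPS before RNA collection and its methods place RNA collection 3 days after siRNA without naming LPS, and the list of unstimulated experiments in the methods leaves out the sequencing. No library that differed from the others in LPS was analysed here, so the comparison is between siRNAs and not between stimulated and resting cells.

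LPS, a component of the outer membrane of Gram-negative bacteria, is handed by CD14 to a complex of TLR4 and MD-2, the protein encoded by Ly96. Through the adaptor MyD88 the receptor activates the kinase IRAK4, and the IκB kinases then mark IκBα (Nfkbia) for degradation, which frees NF-κB dimers such as p50 (from Nfkb1) with p65 (Rela). The adaptor TRIF (Ticam1) carries a separate branch from endosomal TLR4 towards interferon genes. NF-κB itself transcribes Nfkbia and Tnfaip3 (which encodes the ubiquitin-editing enzyme A20), and both products then dampen the signal. Microglia are the resident macrophages of the brain and its main LPS-responsive cells.

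Total estimated counts were 16913005 to 33213477 per library, and 3 counts corresponded to 0.0903 to 0.177 CPM (counts scaled to the library total), so every member lay far above the counting limit. Chd8, the target of the first siRNA, measured 118, 97.5 and 93.6 normalized CPM in control libraries 1, 2 and 3 and 86.8, 44.6 and 38.2 in the Chd8 siRNA libraries. Its log2 fold change was -0.86 (SE 0.28), or -0.93 (SE 0.14) with the replicate number as a block. Tsc2, the target of the second siRNA, measured 40.8, 39.9 and 38.9 CPM in control libraries and 24.6, 30.6 and 36.4 in the libraries given Tsc2 siRNA, with a log2 fold change of -0.38 (SE 0.15). Neither pair of groups overlapped. The blocked fit (edgeR, quasi-likelihood test, p-values adjusted by Benjamini-Hochberg here and below) gave adjusted p = 0.00781 for Chd8 and 0.219 for Tsc2, and without the block both were 1.00. Among microglia markers, the 14-gene sum was 3803 to 5160 CPM, yet P2ry12 (0.687 to 2.78 CPM) and Tmem119 (0 to 1.11 CPM), 2 genes of resting microglia, were under 3 CPM in every library. Control library 3 stood apart, with 106 CPM of 8 astrocyte markers against at most 51.0 in the other 8 libraries, and with the highest sums of fibroblast and vascular markers (69.3 CPM) and of neuron markers (19.2 CPM).

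The members covered a wide range of levels. Per transcript length and library total (TPM), Cd14 was the highest, with a median of 369 TPM over the 9 libraries and a range of 322 to 469. Nfkbia (median 199 TPM) and Tnfaip3 (191 TPM) followed, with ranges of 159 to 249 and 133 to 259 that overlapped each other and the range of Nfkb1 (119 TPM, 91.8 to 159.9), that of Nfkbia only at its lower end. Myd88 (63.6 TPM, 53.8 to 83.4) and Rela (37.6 TPM, 28.3 to 47.8) formed the middle of the order, and neither range met that of its neighbours. Ly96 (6.25 TPM), Tlr4 (5.91 TPM) and Ticam1 (5.22 TPM) could not be ordered, since their ranges of 3.08 to 8.13, 4.40 to 9.02 and 4.31 to 6.32 overlapped. Irak4 had the lowest median at 2.30 TPM, and its range of 1.49 to 3.21 met the lower end of that of Ly96. The co-receptor that hands over LPS and the 2 feedback inhibitors were therefore measured at far higher levels than the receptor chain Tlr4 itself.

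**Figure D1:**
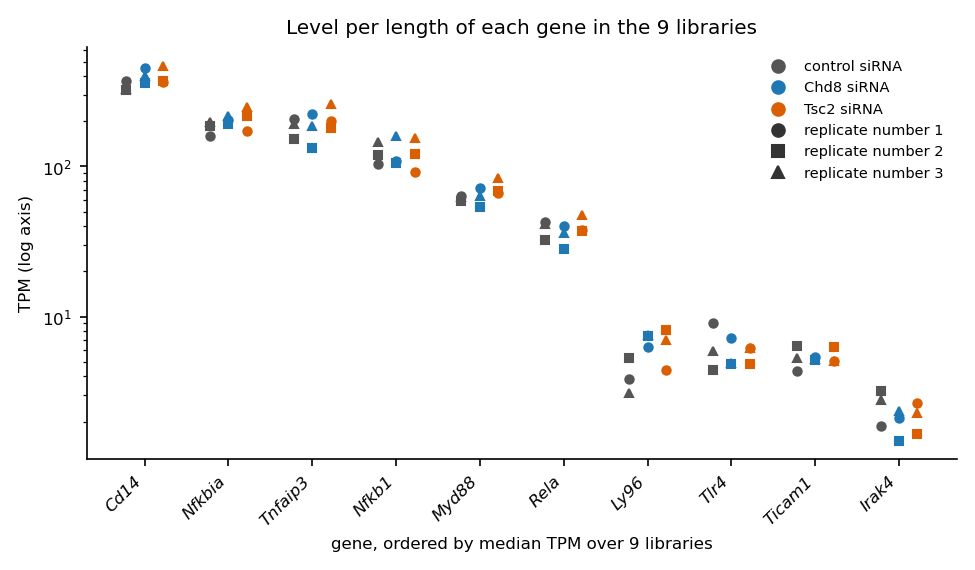
Level per length (TPM, log axis) of each of the 10 genes in the 9 libraries, with colour for the siRNA and symbol for the replicate number. Cd14 lies between 322 and 469 TPM and Irak4 between 1.49 and 3.21, while Ly96, Tlr4 and Ticam1 overlap.

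The question put to the design was whether lowering Chd8 or Tsc2 altered these genes. By edgeR, none of the 10 members was called in either knockdown at a false discovery rate of 0.05 with a fold change of 1.5, where the background over all 16229 genes was 0% as well. Under 25 alternative settings the count of called members remained 0 in each of the 3 comparisons, including DESeq2, limma-voom and fits that left out 1 library. With 1 library left out, the background was 0% to 0.474% of all genes for Chd8 siRNA, 0% to 0.761% for Tsc2 siRNA and 0% to 0.749% between the knockdowns. At such low shares a count of 0 among 10 genes says little about the members. The backgrounds of DESeq2, limma-voom and the other scalings and filters are not given here. With the replicate number as a block, which lowered the spread between libraries, the background was 0.53% of all genes for Chd8 siRNA (86 genes) and 0.388% for Tsc2 siRNA (63 genes), and the members called were still 0 of 10. At an unadjusted p under 0.05 the blocked edgeR fit held 3 members for Chd8 siRNA (Ly96, Cd14 and Nfkbia) against a background of 12.9%, and 4 for Tsc2 siRNA (Ly96, Nfkbia, Tnfaip3 and Myd88) against 10.7%. Without the block, Ly96 for Chd8 siRNA was the only member to reach it, against backgrounds of 3.83% for Chd8 siRNA and 2.59% for Tsc2 siRNA. With the block and no threshold on the fold, 0 members had an adjusted p under 0.05 by edgeR, beside backgrounds of 1.04% and 0.641%.

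Members with 1 direction at all 3 replicate numbers were higher in the knockdown. In Chd8 siRNA libraries 4 of 10 members (Cd14, Ly96, Myd88 and Nfkbia) were above the control library of the same number all 3 times, and 0 were below it all 3 times, against backgrounds of 17.7% and 18.3%. In Tsc2 siRNA libraries 3 members (Ly96, Myd88 and Nfkbia) were above it all 3 times and 0 below, against 15.6% and 16.4%. Both comparisons used the same 3 control libraries. For Tsc2 siRNA the log2 differences at numbers 1, 2 and 3 were 0.16, 0.52 and 0.99 for Ly96 and 0.018, 0.13 and 0.35 for Myd88. Those of Nfkbia were 0.10, 0.14 and 0.26. Tsc2 itself measured 24.6, 30.6 and 36.4 CPM in Tsc2 siRNA libraries 1, 2 and 3, so all 3 differences were smallest where Tsc2 was lowest. That relation was not tested. No member had groups that did not overlap, where the backgrounds were 9.07% and 8.13%. The members had a median log2 fold change of 0.03 after Chd8 siRNA and 0.09 after Tsc2 siRNA, beside -0.02 over all genes tested in both.

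**Figure D2:**
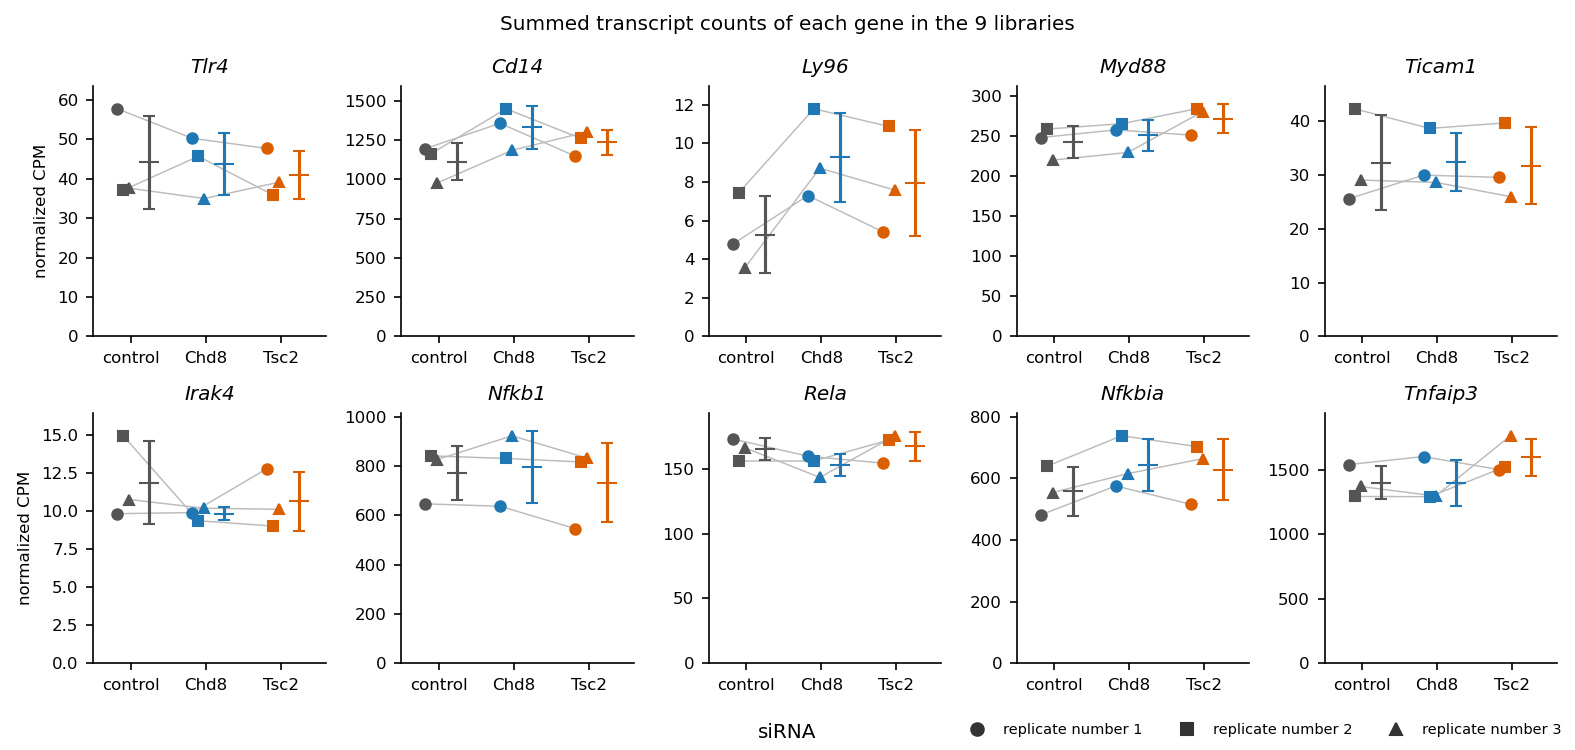
Normalized CPM of each of the 10 genes (linear axes from 0) in the control, Chd8 and Tsc2 siRNA libraries. Symbols are single libraries by replicate number, thin lines join the same number, and the bars beside them are the mean ± SD of 3 libraries. The groups overlap for every gene, and Nfkb1 is lower in each number 1 library (547 to 647 CPM) than in the other 6 (816 to 923 CPM).

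Within the receptor complex, Ly96 showed the largest difference. This gene (chromosome 1, 16688051 to 16709611, plus strand, GRCm38) encodes MD-2, the subunit that binds the lipid part of LPS. It measured 4.79, 7.45 and 3.56 CPM in control libraries 1, 2 and 3, 7.30, 11.8 and 8.72 in Chd8 siRNA libraries, and 5.42, 10.9 and 7.58 in Tsc2 siRNA libraries. Each knockdown library was higher than the control library of its own number, but the groups overlapped because control library 2 exceeded Chd8 library 1 and Tsc2 library 1. For Chd8 siRNA the fold was 1.76 (95% CI 1.03 to 3.02), a log2 fold change of 0.82 (SE 0.35), with adjusted p = 1.00 by edgeR. With the block it was 0.84 (SE 0.22) with adjusted p = 0.0851 by edgeR, past the 1.5-fold line but not past the false discovery rate. For Tsc2 siRNA the log2 fold change was 0.60 (SE 0.35), and the blocked adjusted p by edgeR was 0.310. Control library 3 held the lowest value. Without it the blocked log2 fold change of Ly96 was 0.62 (edgeR adjusted p = 0.431) for Chd8 siRNA and 0.38 (edgeR adjusted p = 0.804) for Tsc2 siRNA. Only 83 to 259 counts per library stood behind these levels.

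Cd14, which encodes the co-receptor that passes LPS to TLR4 and MD-2 and lies on chromosome 18, measured 1196, 1165 and 978 CPM in control libraries, 1358, 1451 and 1186 in Chd8 siRNA libraries, and 1150, 1261 and 1304 in Tsc2 siRNA libraries. All 3 Chd8 siRNA libraries exceeded the control library of their number, and library 3 of that group still fell below control library 1. The log2 fold change was 0.26 (SE 0.13) for Chd8 siRNA, a fold of 1.20 (95% CI 0.982 to 1.46), with a blocked adjusted p of 0.149 by edgeR. For Tsc2 siRNA it was 0.15 (SE 0.13), with a blocked adjusted p of 0.501 by edgeR. Without control library 3, the lowest of the 9, Cd14 had unblocked log2 fold changes of 0.17 after Chd8 siRNA and 0.070 after Tsc2 siRNA. With the block and 1 library left out, they were 0.19 to 0.33 and 0.035 to 0.25.

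Tlr4 (chromosome 4, 66827584 to 66930284, plus strand), the signalling receptor, was lower than Cd14 in TPM in every library and carried no common direction. It measured 57.7, 37.1 and 37.6 CPM in control libraries, 50.2, 45.7 and 35.0 in Chd8 siRNA libraries, and 47.7, 35.9 and 39.1 in Tsc2 siRNA libraries. The number 1 library was the highest of its group in all 3 groups. The log2 fold changes were -0.02 (SE 0.21, fold 95% CI 0.711 to 1.37) for Chd8 siRNA and -0.11 (SE 0.21, fold 95% CI 0.666 to 1.29) for Tsc2 siRNA. Sums of macrophage markers, which were not tested as sums, stood beside the values of Ly96 and Cd14 as follows. The sum of the 14 microglia markers was 4584, 4569 and 3803 CPM in control libraries 1, 2 and 3, 5160, 4968 and 4163 after Chd8 siRNA and 4910, 4828 and 4679 after Tsc2 siRNA, so each knockdown library exceeded the control library of its number and the Tsc2 siRNA group did not overlap control. Of the 13 microglia markers tested, 9 for Chd8 siRNA and 4 for Tsc2 siRNA were higher at all 3 numbers, 2 in each (Csf1r and Cx3cr1) were lower, and 0 were called. The sum of 6 border-associated macrophage markers was 401 to 407 CPM in control, 431 to 490 in Chd8 siRNA and 491 to 542 in Tsc2 siRNA libraries, without overlap. Of those 6 genes, Ms4a7 (318 to 452 CPM) made up most of the sum, Lyve1 was at 0 in every library, Cd163 reached at most 0.189 CPM, and none of the 4 that were tested was called with or without the block. For Tsc2 siRNA, Ms4a7 (log2 fold change 0.43, edgeR adjusted p = 0.0160) and the microglia marker Aif1 (0.53, edgeR adjusted p = 0.0444) passed the false discovery rate in the blocked fit but not the 1.5-fold line. The part of both marker lists in the receptor values was not tested. In bulk RNA such as this, fewer cells of a type and less RNA per cell cannot be told apart.

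**Figure D3:**
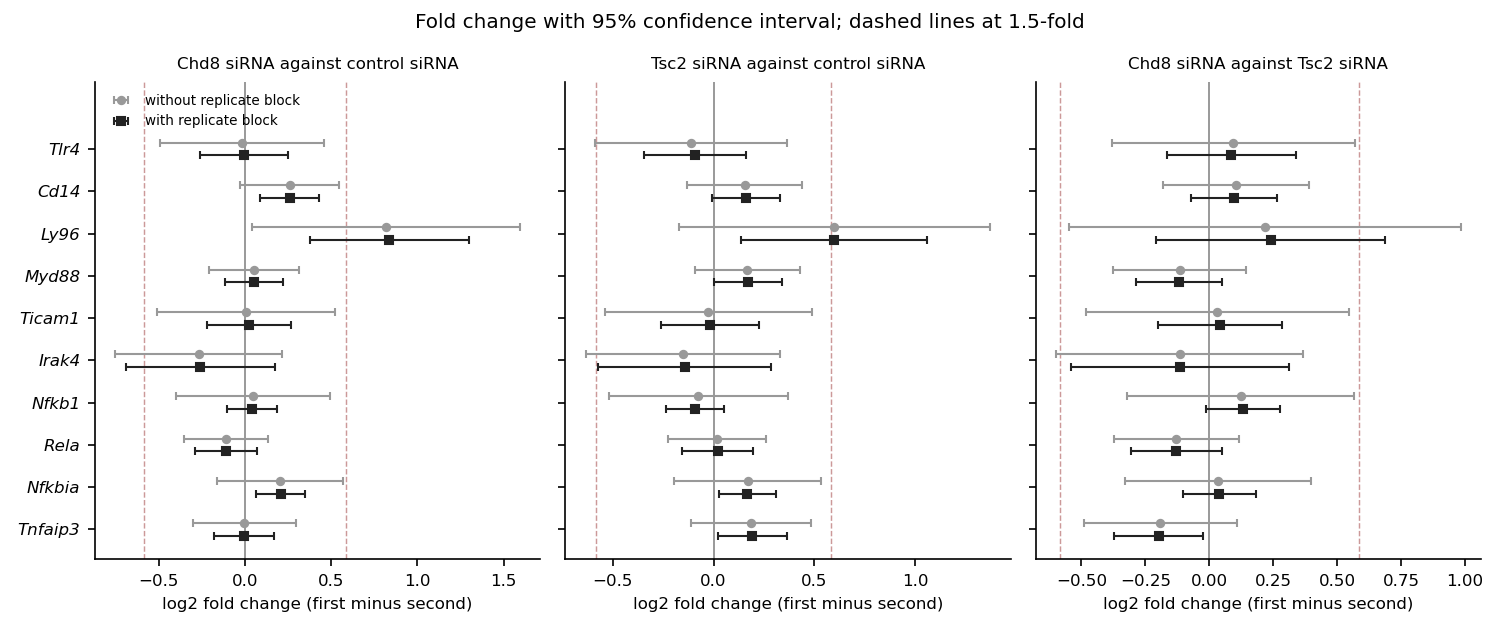
Log2 fold change of the 10 genes in the 3 comparisons, with 95% confidence intervals, without (grey circles) and with (black squares) the replicate number as a block. Dashed lines mark a 1.5-fold difference. Only the intervals of Ly96 for Chd8 siRNA exclude 0 in both fits, and with the block those of Cd14 and Nfkbia also exclude it in that comparison, those of Ly96, Myd88, Nfkbia and Tnfaip3 for Tsc2 siRNA, and that of Tnfaip3 between the knockdowns.

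Of the adaptors, Myd88 (chromosome 9, 119335934 to 119341411, minus strand) serves nearly all Toll-like receptors. It measured 248, 259 and 220 CPM in control libraries, 258, 265 and 229 in Chd8 siRNA libraries, and 251, 284 and 280 in Tsc2 siRNA libraries. The Chd8 siRNA libraries sat just above the control libraries of the same number (log2 fold change 0.05, SE 0.12), and the Tsc2 siRNA libraries lay up to 0.35 above them on the log2 scale (log2 fold change 0.17, SE 0.12). The blocked edgeR adjusted p for Tsc2 siRNA was 0.459. Without control library 3, the lowest for Myd88, the unblocked log2 fold changes were -0.014 and 0.10. With the block and 1 library left out, those for Chd8 siRNA were 0.0041 to 0.099 and those for Tsc2 siRNA 0.081 to 0.25. Myd88 overlaps Acaa1a on the opposite strand, and the strand setting of the counting was not given in the sources used here. Ticam1 (chromosome 17, 56269319 to 56276786, minus strand), the adaptor of the interferon branch, was read from a single transcript. It measured 25.6, 42.3 and 29.1 CPM in control libraries, 30.0, 38.6 and 28.6 after Chd8 siRNA and 29.5, 39.7 and 26.0 after Tsc2 siRNA, so the number 2 library was the highest in each group. The log2 fold changes were 0.01 (SE 0.23) and -0.03 (SE 0.23), and the intervals of the fold reached from 0.703 to 1.43 and from 0.688 to 1.40.

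Irak4 (chromosome 15, 94543643 to 94581815, plus strand), the kinase recruited by MyD88, was the lowest member in TPM, with 147 to 346 counts per library. It measured 9.84, 14.96 and 10.8 CPM in control libraries, 9.91, 9.38 and 10.2 in Chd8 siRNA libraries and 12.8, 9.03 and 10.1 in Tsc2 siRNA libraries. Control library 2 alone was high, and the other 8 libraries lay between 9.03 and 12.8 CPM. The log2 fold change was -0.27 (SE 0.22) for Chd8 siRNA, and without control library 2 it was -0.06 (SE 0.22). For Tsc2 siRNA it was -0.15 (SE 0.22), and 0.05 (SE 0.22) without that library. The retained-intron transcript of Irak4 held 4.98% to 25.1% of its counts. Irak4 also overlaps Twf1 on the opposite strand, a gene with 24256 counts over the 9 libraries against 2272 for Irak4, so its level is uncertain.

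Among the NF-κB subunits, Nfkb1 differed mainly between replicate numbers. The gene (chromosome 3, 135584655 to 135691547, minus strand) encodes the p105 precursor of p50, and it overlaps the unclassified Gm43430 on the same strand. It measured 647, 841 and 826 CPM in control libraries, 637, 831 and 923 after Chd8 siRNA and 547, 816 and 832 after Tsc2 siRNA. The 3 number 1 libraries were the lowest of all 9. The log2 fold changes were 0.05 (SE 0.20) for Chd8 siRNA and -0.08 (SE 0.20) for Tsc2 siRNA, and with the block the intervals narrowed to folds of 0.930 to 1.136 and 0.849 to 1.04. Rela (chromosome 19, 5637483 to 5648130, plus strand), which encodes the transactivating p65 subunit, had the smallest SE of the 10 members without the block. It measured 173, 156 and 166 CPM in control libraries, 160, 156 and 143 after Chd8 siRNA and 154, 172 and 175 after Tsc2 siRNA. Its log2 fold changes were -0.11 (SE 0.11) and 0.02 (SE 0.11), and the unblocked intervals of the fold were 0.783 to 1.098 and 0.856 to 1.20.

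The feedback inhibitors Nfkbia and Tnfaip3 are both transcribed under NF-κB, and they were the members whose RefSeq promoter windows held the NF-κB consensus. Promoter windows were at hand for 6 members in 7 windows (Myd88, Ticam1, Irak4, Rela, Nfkbia and 2 of Tnfaip3), and not for Tlr4, Cd14, Ly96 and Nfkb1. The 10-base NF-κB consensus, searched on both strands in the 250 bases before the start, was found in 2 of the 7, while 7.25% of all 32851 windows held it. The 130 bases next to the start of the 2 windows with a match are shown 5′ to 3′ on the minus strand (GRCm38.p6), with the matches in capitals.
Nfkbia, chr12:55492648-55492777: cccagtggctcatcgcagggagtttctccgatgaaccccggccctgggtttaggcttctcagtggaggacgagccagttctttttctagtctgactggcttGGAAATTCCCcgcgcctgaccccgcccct
Tnfaip3, chr10:19015411-19015540: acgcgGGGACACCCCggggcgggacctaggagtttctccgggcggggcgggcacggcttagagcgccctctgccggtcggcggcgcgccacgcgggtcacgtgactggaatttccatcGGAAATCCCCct
The match of Nfkbia covered bases 29 to 20 before the start, and those of Tnfaip3 covered bases 125 to 116 (found on both strands) and 12 to 3. A match describes the letters of the window and is no measurement of binding.

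Nfkbia (chromosome 12, 55489410 to 55492647, minus strand) encodes IκBα, the protein that holds NF-κB in the cytoplasm. It measured 481, 639 and 554 CPM in control libraries, 575, 738 and 615 in Chd8 siRNA libraries and 516, 703 and 664 in Tsc2 siRNA libraries. Every knockdown library exceeded the control library of its number, by 0.15 to 0.26 on the log2 scale for Chd8 siRNA and by 0.10 to 0.26 for Tsc2 siRNA, yet the groups overlapped. The log2 fold changes were 0.20 (SE 0.16) and 0.17 (SE 0.16), with blocked adjusted p-values of 0.171 and 0.365 by edgeR. Tnfaip3 (chromosome 10, 19000910 to 19015657, minus strand), which encodes A20, measured 1539, 1292 and 1370 CPM in control libraries, 1601, 1291 and 1296 after Chd8 siRNA and 1501, 1520 and 1762 after Tsc2 siRNA. For Chd8 siRNA its log2 fold change was -0.0045 (SE 0.13), a direction that turned to 0.0058 with DESeq2 size factors. For Tsc2 siRNA it was 0.19 (SE 0.13), with a blocked adjusted p of 0.399 by edgeR. Without Tsc2 library 1 the blocked log2 fold change was 0.32 and the edgeR adjusted p 0.0238, still short of 1.5-fold, and this was the lowest adjusted p of any member in any comparison or setting. Tsc2 library 1 had the lowest Tsc2 level of its group (24.6 CPM, against 30.6 and 36.4 in libraries 2 and 3). Tnfaip3 differed from control by -0.036, 0.23 and 0.36 (log2) at numbers 1, 2 and 3, and the relation to the Tsc2 level was not tested.

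**Figure D4:**
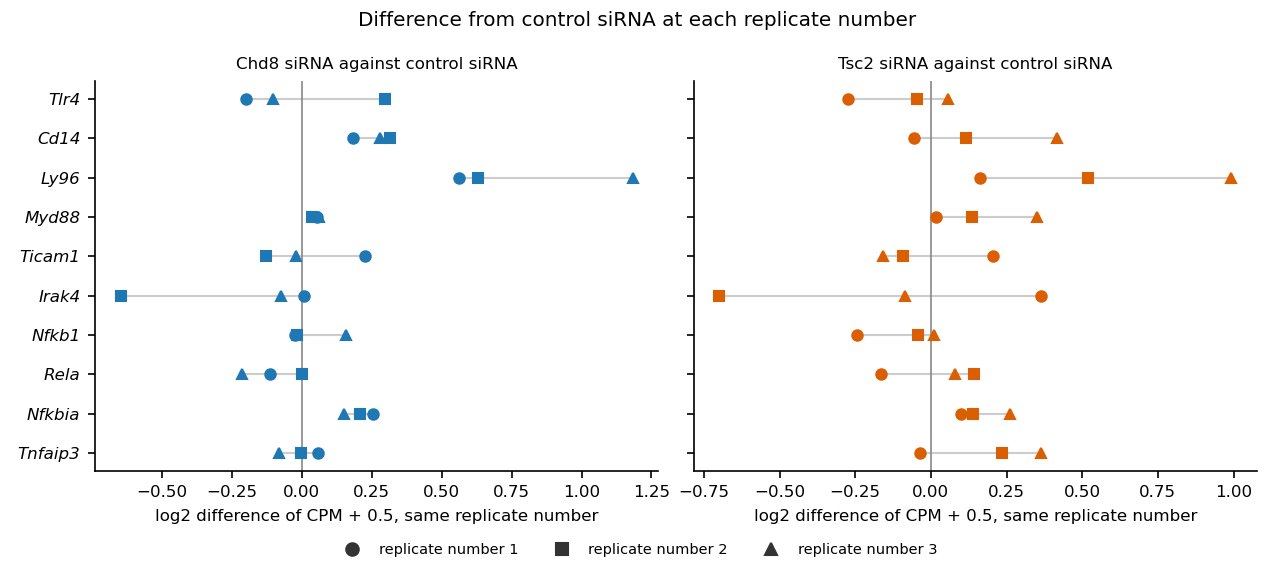
Log2 difference between each knockdown library and the control library of the same replicate number, from CPM + 0.5, for the 10 genes. For Ly96, Myd88 and Nfkbia all 3 symbols lie above 0 in both panels, and for Cd14 they do so for Chd8 siRNA. Those of Irak4 spread on both sides of 0 in both panels.

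The 2 knockdowns were also set against each other. Of the 10 members, 0 were called, beside a background of 0% without the block and 0.222% with it (0.376% with no threshold on the fold), and none had groups that did not overlap (background 8.41%). Tnfaip3 was the only member with an unadjusted p under 0.05 in the blocked edgeR fit (background 10.8%, and 3.1% without the block, where no member had one), with a log2 fold change of -0.20 (SE 0.08) and an adjusted p of 0.377. Without Tsc2 library 1, the one with the lowest Tsc2 level, these were -0.33 and 0.0240 for Tnfaip3, still short of 1.5-fold. Ly96 and Nfkb1 were higher in Chd8 siRNA than in Tsc2 siRNA libraries at all 3 numbers (2 of 10 members, background 16.2%), and 0 members were lower at all 3 (background 15.9%). Over the members the unblocked 95% intervals of the fold between the knockdowns reached from 0.660 for Irak4 to 1.98 for Ly96.

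The members also differed between replicate numbers. The term for the number passed adjusted p 0.05 in 5 of the 10 (Nfkb1, Nfkbia, Ticam1, Tlr4 and Ly96), where it passed in 25.1% of all genes tested. Nfkb1 averaged 610, 829 and 860 CPM at numbers 1, 2 and 3 (n = 3 each), with an edgeR adjusted p of 8.7e-05. Nfkbia averaged 524, 693 and 611 CPM (edgeR adjusted p = 0.00109), and Ticam1 28.4, 40.2 and 27.9 CPM (edgeR adjusted p = 0.00315). Tlr4 averaged 51.9, 39.5 and 37.2 CPM (edgeR adjusted p = 0.0125), and Ly96 5.84, 10.04 and 6.62 CPM (edgeR adjusted p = 0.0235). The number took a median of 37.3% of the variance of the members and 42.0% over all genes, while the siRNA took 28.7% and 18.1%. A factor of 3 levels takes a share of the variance of 9 libraries even without an effect, so these shares do not measure an effect. Rela and Irak4 were at the other end, with 0.227% and 1.65% of their variance between numbers. The sum of astrocyte markers was also higher at number 3 in each group (median 51.0 CPM against 13.6 and 24.8 at numbers 1 and 2), and its part in these levels was not tested.

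Ratios between members within a library do not depend on library scaling. Of 5 ratios in 3 comparisons, only that of Nfkbia to Nfkb1 counts had groups that did not overlap, for Tsc2 siRNA against control. It was 0.744, 0.760 and 0.671 in control libraries and 0.944, 0.861 and 0.798 in Tsc2 siRNA libraries. The 2-sided exact permutation p was 0.1, the smallest that 3 against 3 libraries allow, and 0.667 after adjustment over the 15 comparisons, which was also the lowest adjusted value of any ratio. Among single genes, 8.13% had groups without overlap in this comparison, and no share over other ratios was taken. The ratio of Cd14 to Tlr4 counts was 26.0 ± 5.35 in control, 30.9 ± 3.52 in Chd8 siRNA and 30.9 ± 5.92 in Tsc2 siRNA libraries (SD, n = 3).

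The transcripts of the members gave no further calls. Of 41633 transcripts tested with edgeR, 0 were called in any comparison with or without the block. Nfkb1 was the most divided member, with its leading coding transcripts at 50.1% and 25.4% of its counts and its 4 retained-intron transcripts at 12.9% to 19.1% per library. The main coding transcript of Tnfaip3 held 77.9% of its counts and its retained-intron transcripts 9.90% to 11.3%. A retained-intron transcript took 8.81% to 12.6% of Rela counts, while for Cd14, Ly96, Nfkbia, Myd88 and Tlr4 the main coding transcript held 96.5% to 98.5%.

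The wider pathway was read from 7 lists of 78 genes that include the members, of which 75 passed the filter (not Tlr5, Sarm1 and Sigirr). Without the block 0 of the 75 were called in any comparison. With the block, 1 was called for Chd8 siRNA and 4 for Tsc2 siRNA, beside the backgrounds of 0.53% and 0.388%, and all lay among the IκB proteins, the negative regulators and the NF-κB target genes. Among 16 genes of LPS recognition and other Toll-like receptors, 4 TIR adaptors, 15 kinase-cascade genes and 5 NF-κB subunits, 0 were called for either siRNA in either fit. The medians of the blocked log2 fold change in these 4 lists ran from -0.01 to 0.08 for Chd8 siRNA and from 0.03 to 0.15 for Tsc2 siRNA, beside -0.02 and -0.01 over all genes.

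**Figure D5:**
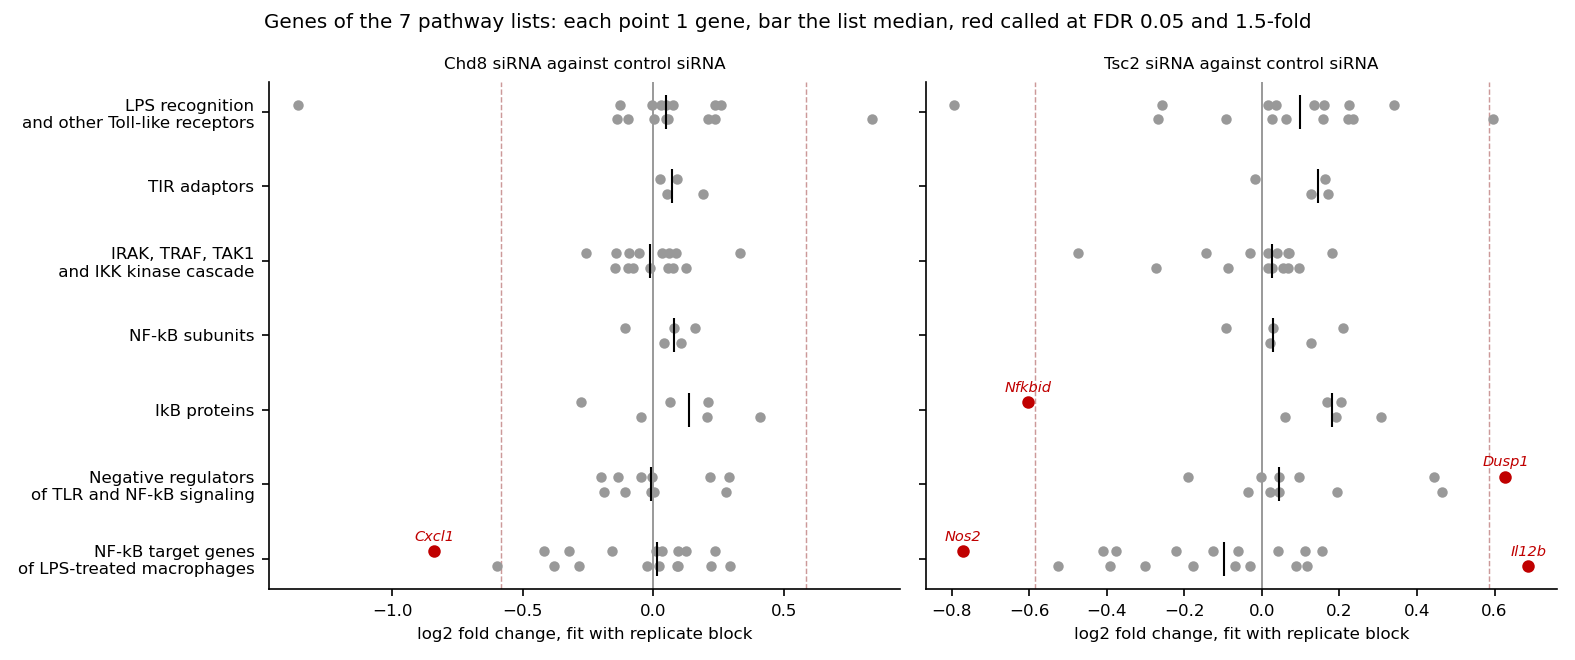
Blocked log2 fold change of each gene of the 7 pathway lists for Chd8 siRNA (left) and Tsc2 siRNA (right) against control. Each point is 1 gene, black bars are list medians, dashed lines mark 1.5-fold, and red points passed a false discovery rate of 0.05 with a fold of 1.5. The 1 red point on the left is Cxcl1, and the 4 on the right are Nfkbid, Dusp1, Nos2 and Il12b.

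Among 18 target genes of NF-κB in LPS-treated macrophages, Cxcl1 fell in the blocked fit for Chd8 siRNA and 1 gene rose and 1 fell for Tsc2 siRNA. Cxcl1, a neutrophil-attracting chemokine, measured 72.1, 174 and 557 CPM in control libraries, 45.0, 108 and 252 after Chd8 siRNA and 34.4, 171 and 374 after Tsc2 siRNA, so each number had a level of its own. Its blocked log2 fold change was -0.84 (SE 0.16, edgeR adjusted p = 0.0194) for Chd8 siRNA and -0.53 (SE 0.16, edgeR adjusted p = 0.188) for Tsc2 siRNA. The call for Chd8 siRNA was kept in 2 of 6 fits that left out 1 library, and lost without control library 1 or 3 or Chd8 library 2 or 3. Without control library 3, which held the most astrocyte marker RNA, the blocked value was -0.75 with an edgeR adjusted p of 0.210. Without the block Cxcl1 had -0.99 (SE 0.91) for Chd8 siRNA, and 0.13 (SE 0.90) when control library 3 was left out. Of 7 fibroblast and vascular markers, Col1a1 was lower in the same blocked comparison (log2 fold change -1.31, edgeR adjusted p = 0.0216), and their sum was 20.2 to 69.3 CPM in control and 18.6 to 31.4 in Chd8 siRNA libraries. The astrocyte sum was 14.6 to 106 and 13.6 to 47.1 CPM, and the part of either cell type in the Cxcl1 values was not tested.

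Il12b, which encodes the p40 subunit of interleukins 12 and 23, rose for Tsc2 siRNA in the blocked fit. It measured 70.8, 479 and 527 CPM in control libraries, 104, 515 and 616 after Chd8 siRNA and 126, 862 and 682 after Tsc2 siRNA. Its blocked log2 fold change was 0.69 (SE 0.10, edgeR adjusted p = 0.00939) for Tsc2 siRNA and 0.29 (SE 0.10, edgeR adjusted p = 0.215) for Chd8 siRNA. Nos2, the inducible nitric oxide synthase, fell for Tsc2 siRNA. It measured 796, 837 and 1024 CPM in control libraries, 631, 589 and 831 after Chd8 siRNA and 673, 460 and 426 after Tsc2 siRNA, where the Tsc2 siRNA and control groups did not overlap. Its blocked log2 fold change was -0.77 (SE 0.14, edgeR adjusted p = 0.0202) for Tsc2 siRNA and -0.38 (SE 0.14, edgeR adjusted p = 0.252) for Chd8 siRNA.

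Of 11 negative regulators tested, Dusp1, a phosphatase that switches off MAP kinases, rose for Tsc2 siRNA in the blocked fit. It measured 388, 220 and 147 CPM in control libraries, 490, 294 and 156 after Chd8 siRNA and 495, 337 and 273 after Tsc2 siRNA. Its blocked log2 fold change was 0.63 (SE 0.11, edgeR adjusted p = 0.0169) for Tsc2 siRNA and 0.29 (SE 0.11, edgeR adjusted p = 0.274) for Chd8 siRNA. Of 6 IκB proteins, Nfkbid, a nuclear member of the family, fell for Tsc2 siRNA. It measured 38.6, 44.0 and 48.5 CPM in control libraries, 27.6, 38.6 and 43.9 after Chd8 siRNA and 20.9, 30.9 and 36.3 after Tsc2 siRNA, and the Tsc2 siRNA group did not overlap control. Its blocked log2 fold change was -0.60 (SE 0.11, edgeR adjusted p = 0.0226). With 1 library left out, the call for Tsc2 siRNA was kept in 4 of 6 fits for Il12b (lost without control or Tsc2 library 2), in 2 of 6 for both Dusp1 and Nos2 (lost without library 2 or 3 of either group), and in 0 of 6 for Nfkbid. Without control library 3 the blocked values were 0.60 for Dusp1 (edgeR adjusted p = 0.172) and -0.68 for Nos2 (edgeR adjusted p = 0.199).

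In the lists with no call, the gene with the lowest unblocked p stayed short of the threshold with all 9 libraries. Lbp, the serum protein that delivers LPS to CD14, had a log2 fold change of -1.38 (SE 0.50) for Chd8 siRNA at 0.704 ± 0.252 against 1.83 ± 0.240 CPM (SD, n = 3), with adjusted p = 1.00 by edgeR. Tlr1, a partner of TLR2, had 0.34 (SE 0.11) for Tsc2 siRNA with adjusted p = 1.00 by edgeR, and a blocked adjusted p of 0.118. Ikbkg, the regulatory subunit of the IκB kinase, had -0.51 (SE 0.30) for Tsc2 siRNA, and -0.47 with a blocked adjusted p of 0.146 by edgeR. It was called in 1 of 6 blocked fits that left out a library, that without control library 1 (log2 fold change -0.64, edgeR adjusted p = 0.0374). Relb, a subunit of the alternative NF-κB pathway, had 0.20 (SE 0.17) for Tsc2 siRNA, and Tirap, the bridging adaptor of MyD88, 0.09 (SE 0.13) for Chd8 siRNA.

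With the mean of each replicate number removed, members were correlated with each other over the 9 libraries, where both values of a point come from the same library with its depth and scaling. The Pearson correlation was 0.93 for Myd88 with Tnfaip3, 0.91 for Cd14 with Nfkbia, 0.87 for Cd14 with Ly96 and 0.86 for Ly96 with Nfkbia, and 5 of 45 pairs exceeded 0.7, while Tlr4 with Ticam1 was at -0.71. Of all 162190 pairs of a member and another gene, 5.43% exceeded 0.7 and 5.17% were under -0.7. Before the number means were removed, 3 pairs exceeded 0.7, and the correlation was 0.49 for Myd88 with Tnfaip3 and 0.55 for Cd14 with Nfkbia. The 2 most alike of each member, picked as the highest of 16228 values over only 9 libraries, had correlations of 0.955 to 0.994, which that choice makes a description only, and 5 of these 20 genes averaged under 1 CPM. They included Glrx for Cd14 and Sept7 for Ly96, with correlations of 0.81 and 0.53 before the number means were removed.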

How the data were processed

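The authors deposited estimated counts per Ensembl transcript for 9 libraries, made with Salmon 0.14.1 (submitters' processing notes name mm10, and the annotation release is not given in the sources used here). Of 140948 transcripts, 139852 matched GENCODE M21 and 0.27% of counts were left out. Counts were rounded, summed per gene and tested with edgeR 4.0.16 in R 4.3.3 (filterByExpr, TMM, quasi-likelihood, Benjamini-Hochberg), all 9 libraries in one fit with siRNA as the factor, after tests on simulated data. CPM are normalized by TMM, and TPM used annotated lengths. Calls needed a false discovery rate of 0.05 and a fold of 1.5. The replicate number of the labels was added as a block because same-numbered libraries deviated together (correlations of 0.244 to 0.522 in 9 pairs, against -0.382 to 0.0366 in the other 18). The block was thus chosen from these same data, and the labels do not say what the number marks. The members, lists and tests were chosen with earlier results of these data known. Named genes were the members, list genes called in any fit or else with the lowest p, the targets and the most alike genes. Alternatives included DESeq2 1.42.0, limma-voom (3.58.1), other scalings and filters, and leaving out each library. Counting intervals and floors cover counting error only.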

Additional observations from a re-analysis of the deposited data

How the results depend on the processing

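In 25 alternatives 0 of the 10 members were called in each comparison, which says little in the left-out fits, where few of all genes were called. The replicate block turned no member into a call. It raised the called genes of the 75 in the pathway lists from 0 to 1 after Chd8 siRNA and 4 after Tsc2 siRNA. With the fold threshold also dropped these were 2 and 5, adding Nfkbib (higher for Chd8 siRNA) and Ptgs2 (lower for Tsc2 siRNA). With the block the target Chd8 and the fibroblast marker Col1a1 became calls for Chd8 siRNA. The block changed no other call given in the text. With 1 library left out, without or with the block, the pathway lists held 0 to 2 calls for Chd8 siRNA, 0 to 4 for Tsc2 siRNA and 0 to 2 between the knockdowns, where 0% to 0.474%, 0% to 0.761% and 0% to 0.749% of all genes were called in the same fits. The causes of changed directions were not tested. For Chd8 siRNA, Tnfaip3 was 0.0058 (log2) with DESeq2 size factors, 0.0058 by DESeq2 and 0.0016 without a filter, and Ticam1 was -0.0074 with upper-quartile factors, -0.025 at 10 CPM in 3 libraries, -0.017 on coding transcripts and -0.0095 on the top transcript, where Tirap was -0.12. For Tsc2 siRNA, Rela was -0.00027 with upper-quartile factors and -0.017 at 10 CPM, Irak4 was 0.0045 on coding transcripts and 0.025 on the top transcript, and Nfkb1 was 0.010 on the top transcript. Means of members in CPM moved by more than 1 SD in 25 of 30 cases on coding transcripts, where totals are smaller.

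Leaving out 1 library, without or with the block, gave these log2 ranges where the sign turned. For Chd8 siRNA they were -0.14 to 0.23 for Tlr4, -0.014 to 0.12 for Myd88, -0.14 to 0.25 for Ticam1, -0.45 to 0.0060 for Irak4, -0.065 to 0.18 for Nfkb1, -0.12 to 0.080 for Tnfaip3, -0.16 to 0.77 for Dusp1, -1.81 to 0.13 for Cxcl1 and -0.29 to 0.66 for Il12b. For Tsc2 siRNA they were -0.23 to 0.13 for Tlr4, -0.22 to 0.22 for Ticam1, -0.34 to 0.12 for Irak4, -0.19 to 0.10 for Nfkb1, -0.036 to 0.11 for Rela, -1.38 to 0.65 for Cxcl1 and -0.14 to 0.19 for the ratio of Tnfaip3 to Nfkbia. Between the knockdowns they were -0.055 to 0.23 for Tlr4, -0.11 to 0.22 for Ticam1, -0.29 to 0.10 for Irak4, -0.050 to 0.26 for Nfkb1 and -0.089 to 0.12 for Nfkbia. With 3 libraries a group, the unblocked 95% intervals of the members reached folds of 0.594 to 3.02 after Chd8 siRNA and 0.644 to 2.59 after Tsc2 siRNA.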

Other observations

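Some NF-κB target genes differed between replicate numbers in every group, in either direction. Tnf, chosen after its values were seen, measured 1829, 5028 and 10642 CPM in control libraries 1, 2 and 3, 1794, 5430 and 10562 in Chd8 siRNA libraries, and 1255, 5983 and 9841 in Tsc2 siRNA libraries. Il6, chosen the same way, measured 141, 682 and 649 CPM in control libraries, 124, 509 and 546 after Chd8 siRNA and 108, 595 and 514 after Tsc2 siRNA. The number 1 library was the lowest of its group for both genes in all 3 groups. It was the highest of its group for Saa3 and Lcn2, also chosen after their values were seen. Saa3 measured 405, 61.3 and 85.7 CPM in control libraries, 367, 31.6 and 49.3 after Chd8 siRNA and 405, 46.8 and 117 after Tsc2 siRNA. Lcn2 measured 69.1, 21.7 and 29.1 CPM in control libraries, 59.2, 16.2 and 18.9 after Chd8 siRNA and 63.0, 12.4 and 22.6 after Tsc2 siRNA.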
